A study of Mus musculus with 8 samples.

Results

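Immediate early genes were read in mouse hearts after pressure overload, in intact frozen tissue sections and in cells taken out of the same kind of tissue. The members were 10 genes chosen by symbol, Fos, Fosb, Fosl2, Jun, Junb, Jund, Egr1, Atf3, Ier2 and Nr4a1, and all 10 were found among the 32285 features of each deposited table. The question was how their levels in intact tissue compared with those in dissociated cells, and how both varied by cell type and by time after surgery.

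Immediate early genes are switched on within minutes of a stimulus, from transcription factors that are already present in the cell and without new protein synthesis. Growth factors, stretch, calcium and cell stress reach them through MAP kinases and the factors SRF, ELK and CREB, and their transcripts are short-lived. In the heart they respond to pressure overload, and enzymatic cell isolation is a well-known trigger of the same genes. Fos, Fosb and Fosl2 pair with Jun, Junb and Jund to form the AP-1 transcription factor. Egr1 is a zinc finger factor, Atf3 a stress-induced factor of the ATF and CREB family, Nr4a1 an orphan nuclear receptor and Ier2 a nuclear protein of the early response.

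The animals were wild-type male C57BL/6J mice, 8 weeks old at surgery, with a sham operation or transverse aortic constriction (TAC), a banding of the aortic arch that loads the left ventricle. The banded hearts were taken after 2, 4 or 6 weeks, named TAC-2w, TAC-4w and TAC-6w here. Each of the 4 conditions gave 1 spatial section and 1 single-cell library, so that condition and sample cannot be told apart. How many animals a section or library held is not stated in the sources used here. Sections were cut from frozen tissue in embedding medium. According to the study's methods, libraries came from hearts minced and digested warm with collagenase and hyaluronidase, with dead cells removed, whereas the sample labels describe nuclei.

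The sections held 1228 to 2193 spots with a median of 15489 to 27593 UMIs (unique molecules) a spot. After filtering, the libraries held 5399 to 7965 cells with a median of 4449 to 10717 UMIs a cell. Mitochondrial transcripts took 42.2 to 51.5% of section UMIs and 2.75 to 4.91% of library UMIs, so every level here is given as counts per 1000000 nuclear-encoded UMIs (CPM). Ribosomal protein genes took 16.5 to 23.0% of those UMIs in libraries and 5.35 to 7.66% in sections. Malat1 took 2.89 to 3.21% of them in libraries and 0.0690 to 0.114% in sections. Neat1 took 0.0779 to 0.116% in libraries and 0.0363 to 0.0853% in sections. Of the barcodes kept, 629 were named platelet-like and 202 red blood cell-like. Whether the libraries held cells or nuclei was not tested. Summed over 6 markers, cardiomyocyte genes such as Myh6 and Ttn stood at 45765 to 68072 CPM in sections and at 117 to 497 CPM in libraries. Fibroblast markers such as Col1a1 and Dcn went the other way, from 2813 to 4056 CPM in sections to 7221 to 32401 CPM in libraries. The TAC-4w library stood apart in make-up, with 432 fibroblast-like cells against 2875 to 4483 in the others and 2427 B cell-like cells against 156 to 915. In a section, fewer cells of a type and less RNA per cell cannot be told apart.

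Sequence just upstream of the start sites was shown for the members whose window held the letters TGACG, the core that CREB and ATF factors recognise. RefSeq (GRCm38.p6) gave a window for 8 of the 10 members, and both strands of the 150 bases before the start were searched. The core lay in 5 of those 8 windows and in 13.3% of 32851 windows of all genes. This motif was chosen after a first look at the sequences. Capitals mark the core, written TGACG on the gene's strand or CGTCA for the opposite strand.
Fos, chr12:85473740-85473889, plus strand: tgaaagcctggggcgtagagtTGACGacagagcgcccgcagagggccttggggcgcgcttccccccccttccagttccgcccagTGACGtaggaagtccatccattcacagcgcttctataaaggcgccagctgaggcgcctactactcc
Fosb, chr7:19310046-19310195, minus strand: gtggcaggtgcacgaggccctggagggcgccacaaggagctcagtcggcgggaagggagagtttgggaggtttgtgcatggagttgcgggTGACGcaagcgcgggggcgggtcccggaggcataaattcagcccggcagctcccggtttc
Junb, chr8:84978749-84978898, minus strand: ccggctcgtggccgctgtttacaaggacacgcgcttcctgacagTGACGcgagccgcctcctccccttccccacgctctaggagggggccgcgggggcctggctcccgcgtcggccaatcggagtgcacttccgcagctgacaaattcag
Atf3, chr1:191183334-191183483, minus strand: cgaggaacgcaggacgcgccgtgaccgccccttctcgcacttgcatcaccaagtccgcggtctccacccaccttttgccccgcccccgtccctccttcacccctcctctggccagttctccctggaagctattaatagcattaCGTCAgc
Nr4a1, chr15:101266696-101266845, plus strand: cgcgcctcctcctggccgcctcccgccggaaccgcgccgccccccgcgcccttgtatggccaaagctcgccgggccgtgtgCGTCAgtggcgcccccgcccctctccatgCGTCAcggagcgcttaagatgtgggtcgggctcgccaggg

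Fos and Nr4a1 held the core at 2 places each, and Fosb, Junb and Atf3 at 1 place. The windows of Jun, Jund and Fosl2 held none. The Egr motif GCGNGGGCG, which Egr1 binds, was in 3 of the 8 windows against 3.81% of all windows. TATAAA was in 1 member window, that of Fos, against 7.57%. The full element TGACGTCA, the AP-1 motif TGANTCA and the SRF motif known as the CArG box were in none of the 8, against 1.36%, 4.24% and 0.916% of all windows. A match is only a run of letters, and no match says nothing about what binds outside the window.

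All 10 members were higher in the libraries than in the sections. Over the 4 conditions the library over section ratio was 500 to 2877 for Fos, 869 to 10479 for Fosb and 3.31 to 5.15 for Fosl2. Values below are in the order sham, then 2, 4 and 6 weeks of TAC. Fos stood at 1.52, 1.60, 3.48 and 2.01 CPM in the sections and at 3906, 4609, 1738 and 2841 CPM in the libraries. The section values rest on 19 to 64 Fos UMIs each. A Fos UMI was found in 1.07 to 4.32% of spots and in 64.9 to 91.5% of cells, although a spot held more UMIs than a cell. Fosb was at 0.638, 0.182, 0.707 and 0.820 CPM in the sections, from 5 to 22 UMIs, and at 1688, 1908, 614 and 1048 CPM in the libraries. Fosl2, which codes for the AP-1 protein Fra-2, was at 21.4, 18.1, 36.7 and 26.4 CPM in the sections and at 103, 93.4, 125.2 and 87.3 CPM in the libraries. The groups did not overlap for any of these 3 genes. How many of all genes separate in this way was not computed, here or for the members below. By the test given below, 42.6% of 15286 genes were called higher in libraries.

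The Jun family supplies the partners of Fos in AP-1. Jun was at 63.7, 49.5, 63.6 and 51.7 CPM in the sections and at 4186, 4916, 1398 and 2966 CPM in the libraries. Junb was at 17.6, 14.02, 28.6 and 21.0 CPM in the sections and at 3504, 3816, 1732 and 2753 CPM in the libraries. Jund, the member of the family that many resting cells already express, was at 136, 84.5, 147 and 136 CPM in the sections and at 1880, 2278, 1380 and 1570 CPM in the libraries. A Jund UMI was present in 53.5 to 77.9% of spots and a Jun UMI in 34.1 to 55.1%. For each of these 3 genes the lowest library lay above the highest section.

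Egr1 was at 10.8, 5.97, 9.84 and 12.0 CPM in the sections and at 2587, 2800, 572 and 2416 CPM in the libraries. Ier2 was at 25.1, 17.3, 23.9 and 33.0 CPM in the sections and at 1291, 1233, 550.5 and 1203 CPM in the libraries. For both genes the libraries were all above the sections, and the TAC-4w library was the lowest of the 4. Atf3 was at 3.83, 4.84, 34.3 and 4.55 CPM in the sections and at 826, 981, 329 and 601 CPM in the libraries. Nr4a1 was at 10.5, 13.3, 63.9 and 38.0 CPM in the sections and at 441, 455, 154 and 471 CPM in the libraries. The TAC-4w section was the highest section and the TAC-4w library the lowest library for these last 2 genes, as they were for Fos, Junb and Jund. The library over section ratio at TAC-4w was 9.57 for Atf3 and 2.41 for Nr4a1. At the other times it was 132 to 216 for Atf3 and 12.4 to 41.8 for Nr4a1.

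**Figure D1:**
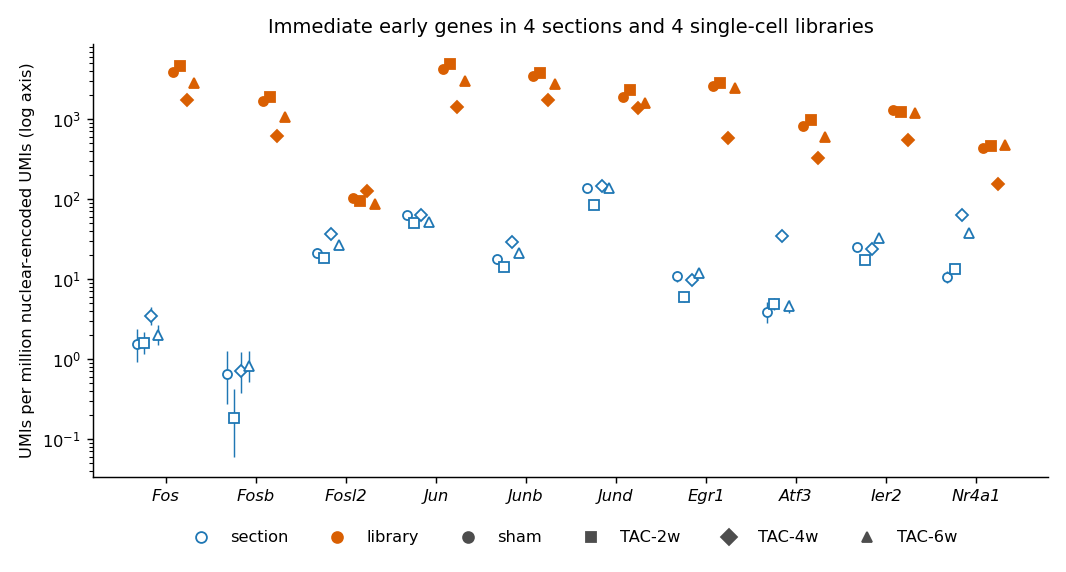
Level of each of the 10 members in every section and library, in CPM on a log axis, with 1 point per sample and bars for 95% counting intervals. Libraries lie above sections for all 10 members, with the largest fitted log2 ratios for Fosb and Fos, 11.05 and 10.55, and the smallest for Fosl2, 2.03.

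Over the 4 pairs of section and library, edgeR's quasi-likelihood test with condition as a block called all 10 members higher in libraries, where 42.6% of 15286 genes were called higher and 23.2% lower. The log2 ratio was 10.55 ± 0.63 (SE, n = 4 pairs, edgeR adjusted p = 8.29e-05) for Fos and 11.05 ± 0.72 (edgeR adjusted p = 0.000101) for Fosb. It was 7.60 ± 0.61 for Egr1, 7.18 ± 0.48 for Junb, 6.62 ± 0.96 for Atf3, 5.76 ± 0.45 for Jun and 5.39 ± 0.35 for Ier2. It was 3.93 ± 0.78 for Nr4a1 (edgeR adjusted p = 0.00492), 3.82 ± 0.32 for Jund and 2.03 ± 0.19 for Fosl2. The median over the members was 6.19 and over all genes tested 0.49. The shift of the median of all genes was 0.06 with TMM factors and 0.11 with DESeq2, and all 10 members were still called higher by both. The assay is confounded with the make-up of the cells, with the platform, with tissue freezing and with the preparation of the libraries, on which the methods and the labels differ. These cannot be told apart in this comparison. In 3 of the 4 pairs, those after TAC, section and library carry the same batch label, and in the sham pair they do not. All 10 members were higher in the library of every pair, and any part of batch was not tested.

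Genes that sit around the members in the same response were read from lists of the pathway, where 42.6% of all genes tested were called higher in libraries. All 16 other early response genes were higher in libraries, from 1.11 (log2) for Klf10 and 1.79 for Bhlhe40 to 5.63 for Egr2 and 5.77 for Fosl1. Of 17 genes for feedback inhibitors and RNA decay factors, 14 were higher and 1 was lower. Nfkbiz, a nuclear regulator of NF-kB, and Socs3, which shuts off cytokine signalling, had a log2 ratio of 6.21 each, and Tob1 was lower at -0.79. Of 14 secreted or effector products, 12 were higher, with Cxcl2, a neutrophil chemokine, at 12.30 and Il6 at 8.68. The genes upstream were not called higher more often than genes in general, since of 18 kinases and factors 6 were higher and 6 lower. Srf, the factor that binds the CArG box, was lower by a log2 ratio of -2.08 and Creb1 was higher at 1.42.

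Heat shock genes and housekeeping genes, read as comparison groups, were called higher about as often as genes in general, of which 42.6% were. Of 13 heat shock genes 6 were higher and 2 lower, with Hspa1a and Hspa1b, the inducible HSP70 genes, at 6.36 and 6.06 and Bag3 at -2.42. Of 10 housekeeping genes 5 were higher and 2 lower. Actb was higher at 2.77, while Gapdh and Sdha, which heart muscle expresses strongly, were lower at -2.32 and -3.92.

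The members were also read in sections against each cell type alone. Cells were clustered without the members, and 14 types were named from their markers, with a "-like" name for each. All 10 members were higher than in the sections in 9 of the 12 types with enough cells to fit. The share of all genes called higher was 42.7% for fibroblast-like, 33.4% for macrophage-like, 41.4% for endothelial-like, 25% for monocyte-like, 16.4% for neutrophil-like, 24.3% for dendritic cell-like, 28.9% for T cell-like, 28.1% for NK cell-like and 31.4% for dividing cells. The median log2 ratio of the members ran from 3.54 in NK cell-like to 6.62 in macrophage-like cells, while that of all genes ran from -1.86 in neutrophil-like to 0.39 in endothelial-like cells.

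Fosl2 was the member that departed from this. It was lower in B cell-like cells than in sections, by a log2 ratio of -1.64 ± 0.37 (SE, against 48.7% of genes lower), while the other 9 members were higher there against 24.7% of genes. In cardiomyocyte-like barcodes 8 members were higher against 6.98% of genes, and Fosl2 at -1.16 ± 0.56 and Nr4a1 at 0.81 ± 0.43 were not called. Without the sham pair of section and library 3 members were higher in these barcodes, and without the TAC-2w pair 5 were. The clusters also shifted with the processor setting of the linear algebra library, an alternative added after a repeat run gave other clusters, in which 99.7% of the cells kept their name. With it 7 members were higher in cardiomyocyte-like barcodes and Fosl2 was lower at -1.55. In platelet-like barcodes Fos, Junb, Egr1 and Ier2 were higher of 9 tested, against 7.53% of genes, and Fosl2 was lower at -2.17 ± 0.58, against 56.6% of genes. Without the TAC-4w pair 7 were higher there, and Fosl2 was no longer called without the TAC-2w, TAC-4w or TAC-6w pair or with all features in the total. Fosl2 in the cardiomyocyte-like and platelet-like barcodes also depended on the naming, and with each barcode named by its own marker score its log2 ratio was 1.54 and 0.74.

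Free RNA in the droplets can add to such levels, so red blood cell-like barcodes, which should lack these transcripts, were set beside them, and empty droplets were not used. Fos was at 160, 88.3 and 109 CPM in red blood cell-like barcodes of the sham, TAC-2w and TAC-4w libraries. It was at 255, 331 and 9.50 CPM in cardiomyocyte-like barcodes of the same libraries, and at 0 in the 10 barcodes of TAC-6w, where 3 UMIs would be 174 CPM. The TAC-2w value was 59.2 CPM under the other clusters, which held 73 such barcodes in place of 74. With barcodes named by their own marker score Fos was at 3128, 4469, 28.2 and 2634 CPM in the 4 libraries, and the TAC-6w value was 1034 CPM with doublets kept and 964 CPM with the members kept in the clustering. With the clusters used throughout, the cardiomyocyte-like value was above the red blood cell-like one in sham, above it at TAC-2w and below it at TAC-4w, and no expression in cardiomyocytes was read from it. With each barcode thinned to 1000 UMIs, 52.3 to 58.8% of cardiomyocyte-like and 68.2 to 76.7% of red blood cell-like barcodes had no member UMI. For fibroblast-like cells that share was 0.696 to 1.56%, and their median was 13 to 23 member UMIs per 1000. Before thinning, the shares were 14.9 to 39.1%, 9.68 to 22.7% and 0 to 0.124% for cardiomyocyte-like, red blood cell-like and fibroblast-like barcodes. The last were read at median depths of 6205 to 13963 UMIs, against 6822 to 10366 UMIs for red blood cell-like barcodes of the first 3 libraries and 1452 to 2513 UMIs for cardiomyocyte-like ones. Unthinned medians were 2, 2 and 1 member UMIs in cardiomyocyte-like and 2, 3 and 2 in red blood cell-like barcodes of those 3 libraries. CPM and thinned shares also depend on the other UMIs of a barcode, so an excess over free RNA was not measured.

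A difference in cell make-up changes the denominator, so members were also counted per 1000 UMIs of the 6 markers of a type, a scale chosen after seeing the data. For a section all UMIs of the member were counted, from whatever cell they came. Other cells thus add to the section value, so a member below the sections is not read as lower in the type. Per 1000 fibroblast marker UMIs, Fos stood at 0.423 to 0.940 in the sections and at 84.9 to 96.9 in fibroblast-like cells. Egr1 stood at 2.12 to 3.00 and 40.1 to 84.7, Junb at 4.92 to 7.74 and 56.9 to 87.4, and Jun at 12.8 to 17.8 and 71.8 to 110. Fosb, Jund and Ier2 also lay above all sections in all 4 libraries, Jund by as little as 42.2 against 39.6. Atf3 and Nr4a1 overlapped between sections and cells. Fosl2 lay below all sections, at 1.72 to 2.16 against 5.96 to 9.93, unlike in CPM. That cannot be told apart from Fosl2 UMIs of other cells in the sections.

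The same scale gave 5 of 10 members above all sections for macrophage-like cells (Fos, Fosb, Jun, Junb and Egr1) and 6 for endothelial-like cells (the same 5 and Ier2). Fosl2, Jund and Nr4a1 lay below all sections in macrophage-like cells, at 4.46 to 10.7, 104 to 143 and 8.70 to 18.9 against 47.8 to 53.5, 208 to 311 and 24.1 to 90.5, and Fosl2 did so in endothelial-like cells. For cardiomyocyte-like barcodes 1 of 10 lay above, Egr1, by as little as 0.271 against 0.215. That rests on very few UMIs, since Egr1 was at 19.0 CPM in 23 barcodes of TAC-4w and at 58.0 CPM in 10 of TAC-6w. Fos per 1000 macrophage marker UMIs was 3.47 to 4.93 in sections and 236 to 275 in cells. Marker UMIs themselves can differ between the assays, and that was not tested. The share of all genes above all sections on this scale was not computed for any type, fibroblast-like cells included. The counts of members therefore have no background to be set against.

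**Figure D2:**
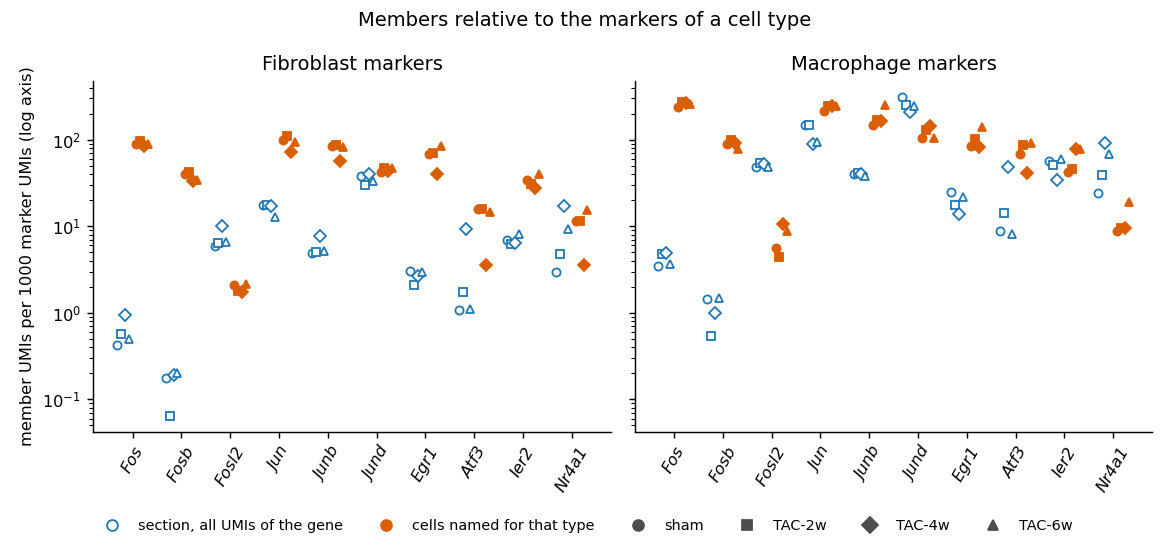
Member UMIs per 1000 marker UMIs of a cell type, on a log axis, in the 4 sections (all UMIs of the member) and in the cells of that type in the 4 libraries, for fibroblast and macrophage markers. Fos, Fosb, Jun, Junb and Egr1 lie above all sections in both, and Fosl2 lies below all sections in both. Since other cells add to the section values, the latter is not read as a lower level in the type.

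Between the cell types of the libraries, fibroblast-like, macrophage-like and smooth muscle and pericyte-like cells each had 9 or 10 members above the mean of the other types, and Fosl2, Nr4a1 and Jund were highest in neutrophil-like, monocyte-like and B cell-like cells. Each type was set against the mean of the other types, with library as a block (n = 4 libraries, edgeR, or 3 for smooth muscle and pericyte-like and red blood cell-like barcodes, of which 1 library held under 10). All types weigh alike in that mean, which takes in the cardiomyocyte-like, platelet-like and red blood cell-like barcodes, the lowest for most members. How many calls rest on these barcodes was not tested. In fibroblast-like cells all 10 members were higher, against 65.2% of 14257 genes. Egr1 led at a log2 ratio of 2.86 ± 0.22 (SE), then Jun at 2.09 ± 0.22, Ier2 at 2.08 ± 0.18 and Fosb at 2.02 ± 0.24. The median was 1.78 over the members and 0.95 over all genes. Egr1 was at 3220, 3552, 1704 and 2870 CPM in fibroblast-like cells of the 4 libraries.

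In macrophage-like cells 9 members were higher, against 52.6% of genes, with Atf3 at 2.53 ± 0.26 and Fos at 2.08 ± 0.27. Nr4a1 was not called there, at 0.07 ± 0.27. In smooth muscle and pericyte-like cells all 10 were higher, against 46.8% of genes, with Jund the least at 0.62 ± 0.26. With each barcode named by its own marker score instead of by cluster, 8 members were higher in fibroblast-like, 4 in macrophage-like and 4 in smooth muscle and pericyte-like cells. Smooth muscle and pericyte-like, macrophage-like and fibroblast-like cells were the first 3 in the order for Fos, with ranges of 3114 to 5785, 3298 to 4954 and 2999 to 4969 CPM that overlapped one another.

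In neutrophil-like cells 7 members were higher, against 17.3% of genes, although the median of all genes was -0.87. Fosl2 led there at 3.21 ± 0.17, with 352 to 625 CPM in the 4 libraries. Monocyte-like cells, the next type by mean, had 187 to 277 CPM, and T cell-like cells had 107 to 348 CPM, just below the lowest neutrophil-like value. In monocyte-like cells 7 members were higher, against 30.2% of genes. Nr4a1, which patrolling monocytes need for their survival, was at 2.92 ± 0.22, with 1220, 1322, 623 and 1568 CPM in the 4 libraries. With the naming by own marker score 4 members were higher and 1 lower in neutrophil-like cells, and 3 were higher in monocyte-like cells. The next type for Nr4a1, smooth muscle and pericyte-like cells, had 609 to 841 CPM and overlapped this range through the TAC-4w library. In dendritic cell-like cells 5 members were higher, against 31% of genes, led by Atf3 at 2.01 ± 0.27, and without the TAC-6w library 3 were.

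The lymphocyte-like types split the family. In B cell-like cells Jund and Jun were higher, at 1.55 ± 0.21 and 0.88 ± 0.25, against 35.1% of genes. Fosl2, Atf3 and Egr1 were lower, at -3.02 ± 0.30, -2.84 ± 0.41 and -0.76 ± 0.31, against 10.5% of genes. Jund was at 2987, 3722, 1898 and 1848 CPM in B cell-like cells, first in the order of types, but its range overlapped that of fibroblast-like cells, 1602 to 2427 CPM. In T cell-like cells 4 members were higher, against 43.5% of genes, or 2 without the sham and 1 without the TAC-6w library. Fosl2 was at 1.82 ± 0.19, and Atf3 and Egr1 were lower at -3.10 ± 0.44 and -1.70 ± 0.35, against 5.68% of genes. The T cell-like cells took in a cluster led by Rag1, which was not read alone. It held 14 of 164, 33 of 142, 38 of 411 and 0 of 88 of them in the 4 libraries. In NK cell-like cells Fosl2 was higher, against 39.7% of genes, and Atf3, Egr1 and Fos were lower, against 5.37%. Without the TAC-2w library none was higher there, and with TMM factors or DESeq2 none was higher and 5 or 6 were lower. Atf3 was at 6.88 to 67.3 CPM across B, T and NK cell-like cells and at 508 to 1605 CPM across monocyte-like, macrophage-like and neutrophil-like cells. These lymphocyte-like and myeloid types did not overlap, and how many of all genes separate them in this way was not computed.

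Endothelial-like and dividing cells had 6 and 7 members higher, against 66.4% and 62.5% of genes, so that their members were called about as often as genes in general. Their members' medians, 0.59 and 0.65, lay below those of all genes, 1.09 and 1.04. Both types had 3 members higher without the TAC-2w library, and 3 without the TAC-6w library. In cardiomyocyte-like, platelet-like and red blood cell-like barcodes all 10 members were lower, against 18.5%, 32.2% and 46.5% of genes. Without the TAC-4w library 4 were lower in platelet-like barcodes. With the naming by own marker score none was lower in cardiomyocyte-like, 1 in platelet-like and 1 in red blood cell-like barcodes, and none was higher in endothelial-like or dividing cells. With TMM factors or DESeq2 none was lower in red blood cell-like barcodes. The contrast of fibroblast-like cells was run on simulated counts of 14257 genes, with a set dispersion of 0.05 and the same expression profile for every type. There 86% of 2-fold changes were called and 8.51% of the calls were false. The contrasts of the other types were not simulated.

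**Figure D3:**
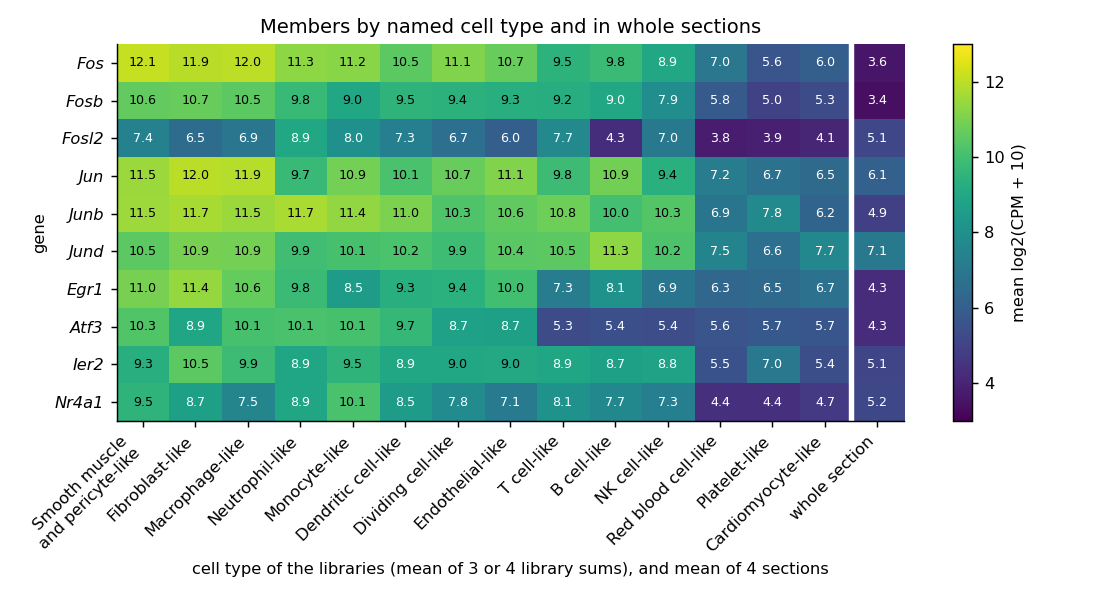
Level of each member (rows) in each named cell type (columns), as the mean of log2(CPM + 10) over the 3 or 4 libraries with at least 10 cells of the type, beside the mean over the 4 whole sections. The colours are to be read along a row, since levels of different genes are not compared. Fosl2 is highest in neutrophil-like, Nr4a1 in monocyte-like and Jund in B cell-like cells, and cardiomyocyte-like, platelet-like and red blood cell-like barcodes are lowest for most members.

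Across the 54 sums of a type in a library, the log2 levels of the members moved together, with Pearson's r from 0.454 (Jund and Atf3) to 0.960 (Fos and Fosb) over the 45 pairs. The points share libraries, depth and free RNA, so this is a description. Of 1651 genes, those most like the mean of the members were Ccnl1 at 0.941, Zfp36 at 0.932 and Btg2 at 0.931. Ccnl1 is a cyclin of RNA splicing, Btg2 an antiproliferative early response gene and Zfp36 a factor that destabilises RNAs with AU-rich elements. They were followed by Neat1, Vim, Hspa5, Skil and Socs3, down to 0.886.

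Within the intact sections 5 members were higher in spots rich in matrix genes, and none was called at the edge of the tissue. Spots in the top 10% for a marker list were set against the other spots of the same section, with section as a block (n = 4 sections, edgeR, 9 members tested, Fosb left out by its low counts). The 5 in matrix spots stood against 13.5% of genes. Egr1 was at 16.5, 13.5, 12.49 and 16.9 CPM in matrix spots and at 10.0, 5.09, 9.53 and 11.3 CPM in the other spots of the 4 sections in the same order. Its log2 ratio was 0.77 ± 0.16 (SE, edgeR adjusted p = 0.000479), with matrix spots higher in all 4 sections. Junb followed at 0.48 ± 0.11, then Ier2 at 0.30 ± 0.11, Jund at 0.28 ± 0.05 and Jun at 0.21 ± 0.07. Without the TAC-2w or the TAC-4w section 3 members were called in matrix spots, Jun and Ier2 being lost.

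In macrophage spots Junb, Jun and Jund were higher, at 0.35 ± 0.12, 0.24 ± 0.07 and 0.20 ± 0.05, against 9.32% of genes, and 1 was without the TAC-4w section. In smooth muscle spots 1 member was higher, Jund at 0.27 ± 0.06, against 6.67% of genes. In spots rich in the stress genes of cardiomyocytes, Nppa and its group, it was again Jund, at 0.20 ± 0.05, against 5.01% of genes. Without the TAC-2w, the TAC-4w or the TAC-6w section that last call was lost, without the sham section 2 members were called, and with TMM factors no member was called in macrophage spots or in these spots.

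At the edge of the tissue no member was called by edgeR, against 1.53% of genes higher and 1.18% lower. On simulated counts of the smooth muscle contrast, with a set dispersion of 0.005, 57.5% of 1.5-fold changes were called and 4.17% of calls were false. The edge contrast was not simulated, and a member not called there is not read as unchanged. At an unadjusted p under 0.05 edgeR passed 3, Atf3 at a log2 ratio of 0.45 ± 0.16, Nr4a1 at 0.26 ± 0.11 and Jund at -0.15 ± 0.07. Levels by steps from the edge were added after seeing the data. In the TAC-4w section Atf3 was at 48.8 CPM in edge spots, 41.7 CPM in spots 2 and 3 steps in, 43.1 CPM at 4 to 6 steps and 21.1 CPM at 7 or more, with a counting interval of 17.9 to 24.6 CPM for the last. In the other 3 sections it was between 2.99 and 6.09 CPM at every depth. Nr4a1 in the TAC-4w section was at 84.6, 69.7, 61.8 and 56.5 CPM from the edge inwards. Every depth of that section was thus above every depth of the other sections for both genes.

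**Figure D4:**
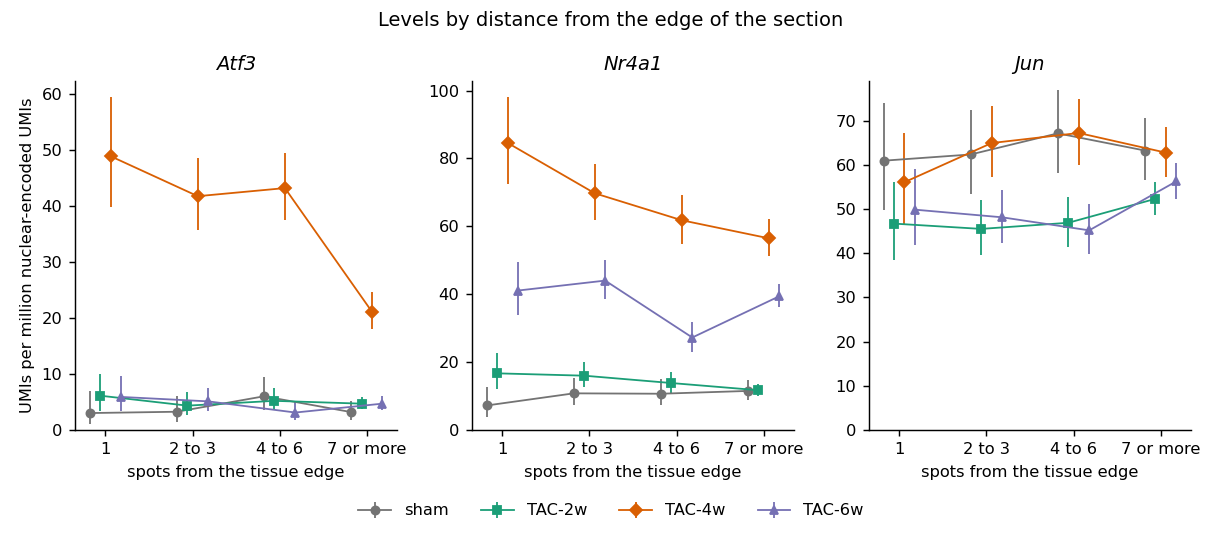
Level of 3 members by distance from the edge of the tissue in each section, in CPM, with 95% counting intervals as bars. Atf3, Nr4a1 and Jun are drawn, and Atf3 in the TAC-4w section falls from 48.8 CPM at the edge to 21.1 CPM in the deeper spots and lies above the other 3 sections at every depth.

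Against sham, 5 members were past 1.5-fold higher in the TAC-4w section and 8 were past it lower in the TAC-4w library. With 1 section and 1 library per condition there is no test, and a member was counted when past 1.5-fold with at least 50 UMIs in the 2 samples. Intervals are exact 95% and cover counting error only. In the TAC-2w section no member was higher, against 1.67% of genes, and Jund and Egr1 were lower, at 0.621 and 0.554 of sham, against 11.9% of genes. With spots thinned to 1000 UMIs Egr1 was at 2.21 times sham, and with all features in the total 1 member was lower. Thinning leaves few of the 164 Egr1 UMIs of TAC-2w and the 135 of sham, since median depths were 24523 and 15489 UMIs a spot. The thinned ratio has no interval. These 2 sections carry the same batch label. The other TAC sections do not share a batch with the sham section, so that batch and time cannot be told apart for them.

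In the TAC-4w section 5 of the 9 members counted were higher than sham, against 7.74% of genes. Atf3 was 8.97 times as high (6.68 to 12.3) and Nr4a1 6.06 times (5.06 to 7.31). Fos was 2.29 times as high (1.36 to 4.06), on 64 and 19 UMIs, Fosl2 1.72 times and Junb 1.62 times. Jun, Jund, Egr1 and Ier2 were within 0.913 to 1.08 of sham. In the TAC-6w section Nr4a1 was higher, 3.61 times (3.00 to 4.36), against 8.82% of genes. Atf3 was back within 1.19 times of sham there, with an interval of 0.843 to 1.69.

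Of 14 other early response genes counted in the TAC-4w section 5 were past 1.5-fold higher and 9 did not pass in either direction. Of all genes 7.74% were higher there and 7.66% lower. Nr4a3 and Nr4a2, the other receptors of the Nr4a family, were at 2.71 and 2.14 times sham, Maff at 2.48, Egr3 at 1.99 and Irf1 at 1.86 times, while Klf2, Klf6 and Bhlhe40 were at 0.899, 0.863 and 0.773. Of 8 product genes counted 6 were higher, with Ccn2, a matrix growth factor, at 3.41 times and Thbs1 at 2.64. Of 15 feedback genes counted 3 were higher and 2 lower, Btg2 at 1.77, Socs3 at 1.92 and Nfkbiz at 1.66 and Dusp6 and Spry4 at 0.543 and 0.486. Of 13 heat shock genes Hspa1a was higher, at 2.64 times, and Hsph1 lower, at 0.580. In the TAC-6w section Gdf15, a stress cytokine, was at 5.14 times sham and Nr4a3 at 2.70. Of 10 product genes counted there 7 were higher and 1 lower, against 8.82% and 2.72% of genes. In the TAC-2w section, which carries the batch label of sham, no gene of these lists was higher. Lower there were 5 of 12 early response, 6 of 15 feedback, 5 of 8 product and 3 of 13 heat shock genes. Of all genes 11.9% were lower in that section.

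Markers of other cells also moved in these sections. Summed monocyte markers were at 6.22, 4.26, 26.6 and 21.1 CPM, and T cell markers at 5.91, 3.86, 14.5 and 19.8 CPM, in the same order of sections. Summed neutrophil markers were at 121, 92.2, 221 and 76.8 CPM. All 6 genes of each of these lists had a UMI in every TAC section, while 2 monocyte and 1 T cell marker were at 0 in sham. The sham section also had the fewest nuclear-encoded UMIs, 12531634 against 18399465 to 27467360. Their part in the Atf3 and Nr4a1 levels was not tested.

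In the libraries no member passed 1.5-fold at TAC-2w, where 3.12% of genes were higher and 2.28% lower. At TAC-4w 8 members were lower than sham, against 28.3% of genes, from 0.494 for Junb to 0.221 for Egr1. Fosl2 and Jund were the 2 that did not pass, at 1.21 and 0.734. Of the lists, 8 of 16 early response, 5 of 17 feedback, 10 of 14 product and 9 of 13 heat shock genes were lower there. In the same order 2, 5, 3 and 0 were higher, against 21.8% of genes. At TAC-6w Fosb was lower, at 0.621, against 17.7% of genes, and the sham and TAC-6w libraries share a batch label.

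The lower levels of the TAC-4w library were also read within a type, since its make-up differed. In fibroblast-like cells of TAC-4w 5 members were lower, against 8.39% of genes: Atf3 at 0.203, Nr4a1 at 0.283, Egr1 at 0.529, Junb at 0.599 and Jun at 0.643 of sham, while Fos was at 0.860. These cells came from 3 clusters in other shares than in sham, so each cluster was also read alone, a reading added after those shares were seen. In the cluster led by Pla1a, with 87 cells against 2017 in sham, 9 members were lower, against 8.28% of genes, and in the one led by Igfbp3, with 304 against 2299, 5 were, against 10% of genes. In the cluster led by Wif1, with 41 cells against 167, none was lower, against 9.52% of genes, and Fos, Fosb and Ier2 were higher, at 1.86, 1.78 and 2.29, against 10.9%. In macrophage-like cells 1 was lower, Atf3 at 0.425, against 13.3% of genes, while Nr4a1 was at 0.779, on 157 UMIs, and Egr1 at 0.679. These ratios turned on which of 191 barcodes were named so, since under the other clusters 6 members were lower there and Nr4a1 was at 0.218. Those clusters named 169 TAC-4w barcodes macrophage-like, and 237 monocyte-like in place of 216. Their monocyte-like cluster had the protease genes Prss34 and Mcpt8 among its leading genes, and the one used throughout did not. With doublets kept, these genes led a cluster of 32 barcodes, 23 of them of TAC-4w. What these barcodes are was not tested. With barcodes named by their own marker score 6 members were lower in macrophage-like cells, with doublets kept 7 and with the members kept in the clustering 1. Atf3 stayed at 0.425 to 0.493 under all 5 namings. In endothelial-like cells all 10 were lower, against 13% of genes. Atf3 fell from 920 to 74.4 CPM there, 0.0808 of sham, Fosb stood at 0.168 and Fos at 0.190. The endothelial-like cells formed 2 clusters, and the one led by Npr3 held 152 of 492 cells in sham but 2 of 482 at TAC-4w. In the other, led by Fabp4, 9 members were lower, against 7.06% of genes, with Atf3 at 0.101, Fosb at 0.144 and Fos at 0.207 of sham. Atf3 and Nr4a1, the members furthest above sham in the TAC-4w section, were thus below sham in each of these 3 types of the TAC-4w library. In the fibroblast-like cluster led by Wif1, however, they were at 1.02 and 0.953 of sham.

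At TAC-6w 7 members were lower in endothelial-like cells, against 23.4% of genes, with Jun at 0.401, Fosb at 0.404 and Fos at 0.406 of sham. The cluster led by Npr3 held 15 of 198 of these cells, and in the one led by Fabp4 alone 7 members were lower too, against 20.5% of genes, with Jun at 0.524, Fosb at 0.336 and Fos at 0.441. In macrophage-like cells of TAC-6w 3 members were higher, against 4.84% of genes, or 1 with doublets kept. Nr4a1 was at 1.97 times sham (1.82 to 2.13), Ier2 at 1.64 and Junb at 1.53, with Egr1 just inside the limit at 1.48. In fibroblast-like cells of TAC-6w Fosb and Atf3 were lower, at 0.609 and 0.657, against 15.6% of genes. This count differed between clusters, with 4 members lower in the one led by Pla1a (Fos, Fosb, Jun and Atf3, 2166 cells against 2017 in sham, 15.1% of genes lower), 0 in the one led by Igfbp3 (640 against 2299, 19.8%) and 3 in the one led by Wif1 (69 against 167, 23.9%). At TAC-2w 1 of the 10 members was lower in endothelial-like cells, Nr4a1 at 0.580, against 4.02% of genes. That ratio was 1.08 as a mean over cells, and within the clusters led by Fabp4 and Npr3 it was 0.844 and 0.554. None passed in fibroblast-like cells, where 2.86% of genes were higher and 1.82% lower, or in macrophage-like cells, where 1.83% were higher and 1.95% lower.

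**Figure D5:**
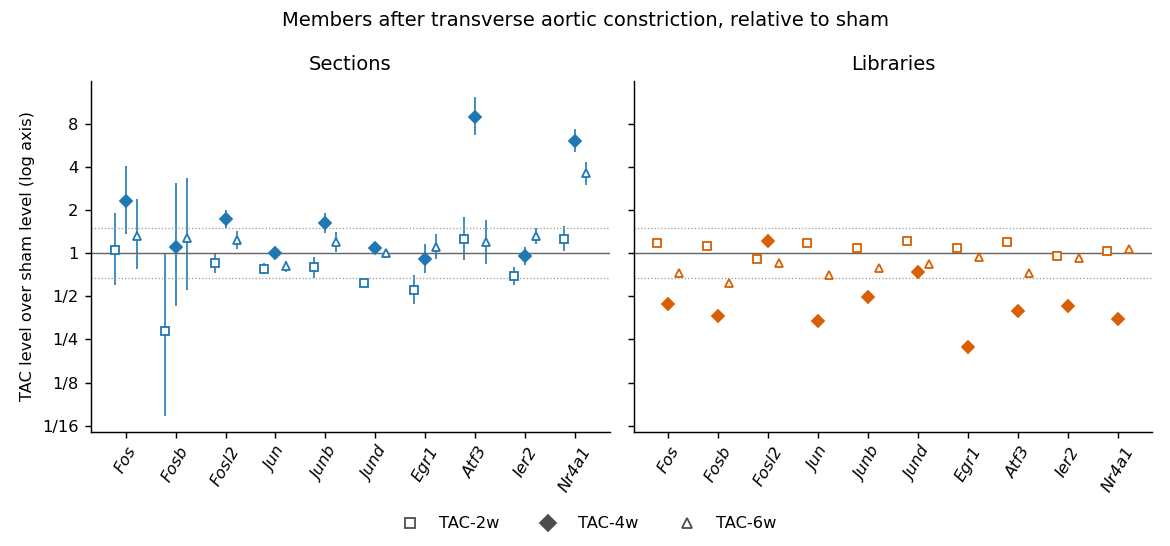
Ratio of each TAC sample to sham for the 10 members, on a log axis, in sections and in whole libraries, with exact 95% counting intervals as bars and dotted lines at 1.5-fold. Atf3 and Nr4a1 lie at 8.97 and 6.06 in the TAC-4w section and at 0.398 and 0.349 in the TAC-4w library.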

How the data were processed

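Sections were measured with Visium spatial and libraries with droplet single-cell RNA sequencing. The deposited matrices hold UMI counts per gene and barcode, which per the labels' processing notes the authors made with Space Ranger 1.3.1 and Cell Ranger 7.0.0 on mm10. Barcodes with 200 to 6000 genes, 500 to 30000 UMIs and at most 15% mitochondrial UMIs were kept, and the 3.2% with the highest doublet scores were removed. Doublet scores came from scanpy 1.11.5, and cells were clustered with Seurat 5.3.0 without the members or the early response, feedback, product and heat shock lists. Clusters were named from 6 markers per type. Libraries shared 9 to 30 barcodes pairwise. Levels leave out mitochondrial genes and 3 ribosomal RNA-like genes. Counts summed per sample, type or spot class were tested with edgeR 4.0.16 (quasi-likelihood, Benjamini-Hochberg adjustment, threshold 0.05) over genes with 10 UMIs in at least 4 sums, and DESeq2 1.42.0 was an alternative. The edgeR fit was tested on simulated counts, and the other steps were not. The named genes were all members, the 8 genes most like the members and a part of the 2 highest and 2 lowest tested genes of each pathway list. Where TAC sections were set against sham, other list genes were also named, some of them by no fixed rule. The members and lists were chosen with earlier results of these data known. Where nothing says that samples are separate animals, p-values measure only the spread between these samples. Intervals are exact and cover counting error only.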

Additional observations from a re-analysis of the deposited data

Results flagged for a closer look

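Chance sets about 1 in 20 groups of 4 samples apart in this way, and 20 groups were looked at (10 genes in sections and in libraries). Atf3 in the TAC-4w section, at 34.3 CPM, stood far above the other 3 sections, which ran from 3.83 to 4.84 CPM. Ier2 in the TAC-4w library, at 550.5 CPM, stood far below the other 3 libraries, which ran from 1203 to 1291 CPM. Nr4a1 in the TAC-4w library, at 154 CPM, stood far below the other 3 libraries, which ran from 441 to 471 CPM. Egr1 in the same library, at 572 CPM against 2416 to 2800 CPM, fell just short with a ratio of 0.827. Jund in the TAC-2w section, at 84.5 CPM against 136 to 147 CPM, did so too, with 0.822. The TAC-4w library is also the one that differed in cell make-up, and its part in the Ier2 and Nr4a1 levels of the whole library was not tested. Within fibroblast-like cells Ier2 was at 1171 CPM in that library against 1360 to 1607 CPM in the others, and Nr4a1 at 153 CPM against 524 to 585 CPM.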

How the results depend on the processing

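All 10 members stayed higher in libraries than in sections under the 13 alternatives tried for that comparison. Other counts moved, and the cause was not tested. Against sections, with all features in the total, no member was lower in platelet-like barcodes. With barcodes named by their own marker score 9 were higher and 0 lower there, and Fosl2 turned to 0.74 (log2) in platelet-like and 1.54 in cardiomyocyte-like barcodes. Between types, the same naming gave 1 member higher and 5 lower in B cell-like, 0 lower in cardiomyocyte-like, 1 higher in dendritic cell-like, 0 higher in dividing, 0 higher and 2 lower in endothelial-like, 4 higher and 1 lower in macrophage-like (with Nr4a1 at -1.09), 3 higher in monocyte-like, 4 higher and 1 lower in neutrophil-like, 5 lower in NK cell-like, 1 lower in platelet-like, 1 lower in red blood cell-like, 4 higher in smooth muscle and pericyte-like, and 1 higher and 4 lower in T cell-like cells. TMM factors and DESeq2 both gave 0 higher in dividing, 0 higher in NK cell-like, 0 lower in red blood cell-like and 1 higher in T cell-like cells. TMM factors gave 3 higher in dendritic cell-like, 1 higher and 2 lower in endothelial-like and 5 lower in NK cell-like cells. DESeq2 gave 2 higher in dendritic cell-like, 3 higher and 1 lower in endothelial-like, 6 lower in NK cell-like, 4 higher and 1 lower in monocyte-like and 1 higher in red blood cell-like cells.

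Among spots, TMM factors gave 3 members higher in matrix spots, 0 in macrophage spots and 0 in cardiomyocyte stress spots. The top 5% of spots gave 1 in macrophage spots, and in cardiomyocyte stress spots all features in the total gave 3 and spots of at least 5000 UMIs gave 2. Against sham, thinning each spot to 1000 UMIs gave 1 higher at TAC-2w, with Egr1 turning to 2.21 times sham, and 4 higher and 1 lower at TAC-6w. Thinned sections keep few UMIs of most members, so these ratios rest on small counts. All features in the total gave 1 lower at TAC-2w and 3 higher at TAC-6w. Nr4a1 of endothelial-like cells at TAC-2w turned to 1.08 as a mean over cells. Within single clusters, Junb, Egr1 and Atf3 turned to 1.41, 1.37 and 1.02 of sham in the fibroblast-like cluster led by Wif1 at TAC-4w, and Egr1 to 1.06 in the endothelial-like cluster led by Npr3 at TAC-6w, of 15 cells. Without thinning, 0.0223% of fibroblast-like and 18.9% of cardiomyocyte-like sham barcodes had no member UMI.

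Each condition was left out in turn (leave-one-out), as a pair of section and library against sections, as a library between types and as a section among spots. The number of members higher than in sections ranged from 3 to 8 in cardiomyocyte-like and from 3 to 7 in platelet-like barcodes, and the number lower in the latter from 0 to 1. Against other types the members higher ranged from 3 to 6 in dendritic cell-like, 3 to 7 in dividing, 3 to 8 in endothelial-like, 0 to 1 in NK cell-like and 1 to 4 in T cell-like cells, and the members lower from 4 to 10 in platelet-like barcodes. In spots they ranged from 3 to 4 in matrix, 1 to 3 in macrophage and 0 to 2 in cardiomyocyte stress spots.

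Clusters from another processor setting of the linear algebra library, chosen after seeing the data, gave 1 member lower in cardiomyocyte-like barcodes than in sections, and Jund was not called in smooth muscle and pericyte-like cells. A filter of 10 UMIs in at least 14 sums, also chosen after seeing the data, moved none of the counts between types by over 1.5 times. The comparison of assays was paired by condition through its block. No paired analysis was possible between the TAC times and sham because each has 1 section and 1 library and the labels give no replicate numbers. Section levels of Fos and Fosb rest on 5 to 64 UMIs, which limits their ratios between sections.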
